A study of Homo sapiens with 17 samples.

Results

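WDR38, RNF225, PRR18, BAAT, CAND2, SYNE1, ZDBF2 and ZG16B are 8 of the 19141 genes counted in YB5 colon cancer cells, and they were chosen because hardly any read fell on them in DMSO while many did on toyocamycin at 2 h or at the last time point. These 2 contrasts chose the genes, so the values there are a description and carry no test. Over the 8 DMSO libraries the 8 genes had sums of 4 counts (ZDBF2) to 30 counts (ZG16B), with no library above 9. At the last time on toyocamycin, their means ran from 59.9 CPM (read counts scaled to the size of the library) for ZDBF2 to 737 CPM for WDR38.

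The cells were YB5, a line derived from SW48 human colon cancer cells that carries a single insertion of a methylated CMV promoter in front of GFP, in both arms. They received either 250 nM toyocamycin, an adenosine analogue, or its vehicle DMSO, and polyA RNA was sequenced. The labels give 2 libraries per arm at 2 h, 1 DMSO and 2 toyocamycin libraries at 10 h, 1 per arm at 24 h and at 48 h, and 3 per arm at the last time, which is 72 h in the labels and is set at 96 h in the study's text. In the labels, batch 2 holds replicate 2 of both arms at 2 h and 10 h, and batch 1 holds the rest. The labels speak of biological triplicates for RNA but do not say which libraries are separate cultures, so p-values measure the spread between these libraries, which may be partly technical. YB5 is a single engineered line, and no untreated libraries were analysed here.

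Depth was 16179215 to 20756242 counts on DMSO and 8735465 to 22121364 counts on toyocamycin. Replicate 2 of toyocamycin at 10 h stood apart, with the lowest total, 14926 genes at 10 counts or more against 11423 to 13034 in the other 16 libraries, and 6.55% of its counts on mitochondrially encoded genes against 0.917% to 3.49% elsewhere. EPCAM, CDH1, KRT8, KRT18 and CDX2, markers of colon epithelium, had 1319 counts or more in every DMSO library, whereas KRT20, LGALS4 and GPA33 had at most 9. VIL1 and CDH17, also colon markers, were low as well, with 9 to 51 and 21 to 50 counts on DMSO. The 10 colon markers summed to 1736 to 6681 CPM on DMSO and 534 to 5101 CPM on toyocamycin, and at the last time to 5807 to 6681 CPM on DMSO and 534 to 571 CPM on toyocamycin, when the 8 genes were far higher. Of the 9 tested at that time, 3 rose and 5 fell (median log2 fold change -1.38), beside 47.0% and 41.9% of all genes tested. Markers of other tissues were summed in the same way. The 10 hepatocyte markers summed to 0.914 to 4.84 CPM on DMSO and 4.82 to 28.5 CPM on toyocamycin, and the 8 leukocyte markers to 0.623 to 1.26 CPM and 1.41 to 88.9 CPM. The same sums were 0.633 to 1.77 and 0.975 to 18.6 CPM for acinar cells, 1.73 to 3.41 and 2.03 to 37.1 CPM for ciliated cells, and 0.372 to 12.3 and 0.500 to 25.6 CPM for fibroblasts. They were 14.7 to 33.4 and 18.0 to 90.1 CPM for skeletal muscle, and 192 to 236 and 53.1 to 230.5 CPM for oligodendrocytes, which on toyocamycin were at 53.1 to 67.4 CPM at the last time. The highest toyocamycin sums for hepatocytes, ciliated cells, fibroblasts and skeletal muscle came from replicate 2 of 10 h alone, the library that stood apart. The other 10 h library was at 11.4, 5.78, 0.500 and 50.8 CPM for these lists. At the last time, the skeletal muscle sum was lower on toyocamycin, at 18.0 to 22.3 CPM against 25.5 to 33.4 on DMSO. That sum rests mainly on TNNT1, with 279 to 684 counts on DMSO. Of the 5 muscle markers tested at that time, 3 rose and 1 fell (median log2 fold change 2.43). The oligodendrocyte sum rests mainly on MBP and CNP, with 1119 counts or more on DMSO. Of the 5 oligodendrocyte markers tested, 3 rose and 2 fell (median 3.53). The toyocamycin sums were then higher for hepatocytes (16.1 to 17.4 against 2.03 to 2.60), ciliated cells (17.3 to 18.9 against 2.40 to 3.22) and fibroblasts (2.87 to 21.9 against 0.372 to 0.991). The part of these markers in the results was not tested, and in bulk RNA, more cells of a kind and more RNA per cell cannot be told apart.

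As background, CDK9 is the kinase that lets RNA polymerase II leave its pause near gene starts, and the study asked whether toyocamycin acts on it. The 8 genes have no common pathway. WDR38 carries WD repeats, which fold into propeller-shaped scaffolds, and RNF225 a RING finger, a fold found in many ubiquitin ligases. PRR18 is a proline-rich protein. BAAT joins bile acids to glycine or taurine in the liver. CAND2 is the paralogue of CAND1, which exchanges substrate receptors on cullin ligases. SYNE1 encodes nesprin-1, a giant protein that ties the nuclear envelope to the cytoskeleton. ZDBF2 is an imprinted zinc finger gene, and ZG16B is a secreted lectin-like protein of exocrine glands.

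The stretches of DNA that end just before the start of WDR38, RNF225, PRR18 and ZDBF2 are given here because they show how unlike the starts of these genes are. They come from RefSeq (GRCh38.p14), cut back where the GENCODE gene starts earlier, are written 5′ to 3′ on the strand of the gene, and have every CG dinucleotide in capitals. They lie at chr9:124853210-124853416 (plus strand, WDR38), chr19:58395406-58395655 (plus, RNF225), chr6:166308449-166308642 (minus, PRR18) and chr2:206274413-206274662 (plus, ZDBF2).
WDR38: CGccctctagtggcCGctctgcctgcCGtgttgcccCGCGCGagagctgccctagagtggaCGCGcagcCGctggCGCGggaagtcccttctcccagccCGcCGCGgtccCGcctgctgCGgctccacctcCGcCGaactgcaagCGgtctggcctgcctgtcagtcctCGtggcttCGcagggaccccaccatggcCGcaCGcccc
RNF225: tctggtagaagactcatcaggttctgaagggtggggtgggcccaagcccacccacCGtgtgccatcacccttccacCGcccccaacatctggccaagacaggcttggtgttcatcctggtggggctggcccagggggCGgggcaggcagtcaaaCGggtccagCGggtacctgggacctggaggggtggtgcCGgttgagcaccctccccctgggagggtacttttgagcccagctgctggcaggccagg
PRR18: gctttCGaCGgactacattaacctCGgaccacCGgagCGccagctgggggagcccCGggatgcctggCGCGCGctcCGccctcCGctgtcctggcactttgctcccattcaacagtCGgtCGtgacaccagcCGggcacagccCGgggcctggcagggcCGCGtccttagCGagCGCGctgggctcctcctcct
ZDBF2: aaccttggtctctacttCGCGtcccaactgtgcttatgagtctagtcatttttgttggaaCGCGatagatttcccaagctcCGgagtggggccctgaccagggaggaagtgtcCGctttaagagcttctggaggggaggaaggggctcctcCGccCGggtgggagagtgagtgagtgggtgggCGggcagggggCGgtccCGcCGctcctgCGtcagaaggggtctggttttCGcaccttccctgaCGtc

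Counted over the full 250 bases before each RefSeq start, the CG dinucleotides numbered 29 for PRR18, 26 for WDR38, 24 for CAND2, 15 for ZDBF2, 8 for ZG16B, 7 for SYNE1, 6 for RNF225 and 1 for BAAT. The median over 14967 counted genes with such a window was 18, and over the 5002 of them with no DMSO library above 10 counts it was 6. The windows of BAAT and SYNE1 lie wholly, and that of CAND2 mostly, inside the GENCODE gene, which starts earlier. The 8 genes therefore held both CG-dense and CG-poor RefSeq starts. The 5 genes that were higher at 2 h spanned the whole range, from 1 for BAAT to 29 for PRR18, and from 6 for RNF225 if BAAT is set aside. The motif TATAAA, searched on both strands, was found in the windows of SYNE1 and ZG16B and in 8.93% of all windows. The motif GGGCGG was found in those of WDR38, RNF225, PRR18, CAND2 and ZDBF2 and in 57.4% of all windows, and CCAAT in none of the 8 and in 34.7% of all.

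WDR38 showed the largest fitted rise of all 14491 genes tested at the last time. It lies on chromosome 9 (124853417 to 124857890, plus strand). On DMSO it had 6 and 3 counts at 2 h, 0 at 10 h, 9 at 24 h, then 0 at 48 h and 2, 1 and 1 at the last time. On toyocamycin it had 88 and 64 counts at 2 h, 458 and 147 at 10 h, 3053 at 24 h, then 5189 at 48 h and 6868, 8497 and 8626 at the last time. At every time, each toyocamycin library was above each DMSO library. In CPM, the 2 h level was 3.56 ± 0.126 (SD, n = 2) against 0.203 ± 0.0694 (n = 2), and the last level was 737 ± 57.1 (SD, n = 3) against 0.0628 ± 0.0315 (n = 3).

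**Figure D1:**
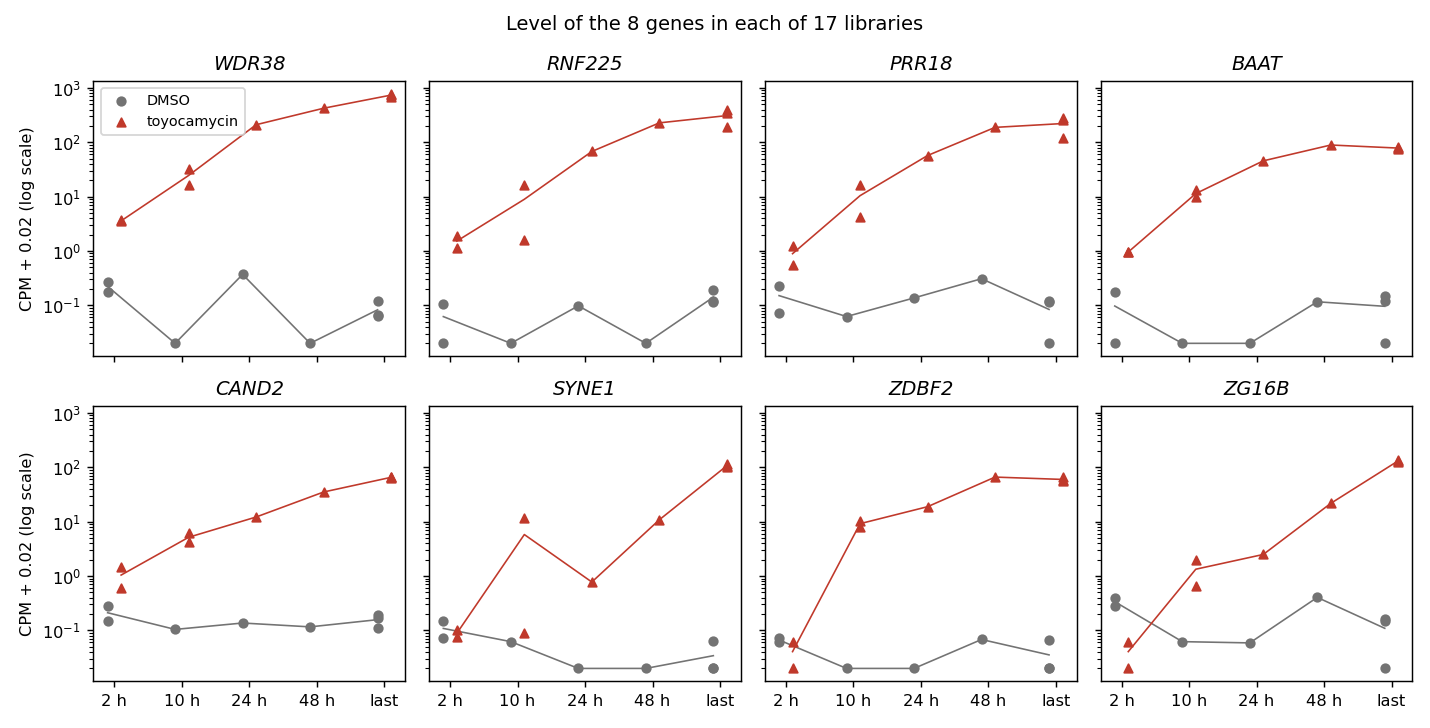
Level of each of the 8 genes in each library against time, in CPM plus 0.02 on a log axis, with DMSO as grey circles, toyocamycin as red triangles, and lines through the means. WDR38, RNF225, PRR18, BAAT and CAND2 are apart from DMSO at every time, ZDBF2 from 10 h, and SYNE1 and ZG16B are still at 10.8 and 21.7 CPM at 48 h, before 107 and 132 CPM at the last time.

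RNF225, on chromosome 19 (58395656 to 58397079, plus strand), had 2 and 0 counts on DMSO at 2 h, 0, 2 and 0 at 10, 24 and 48 h, and 2, 2 and 4 at the last time. Toyocamycin brought 45 and 21 counts at 2 h, 228 and 14 at 10 h, 983 at 24 h, then 2792 at 48 h and 1910, 3774 and 4493 at the last time. The arms did not overlap at any time, but the toyocamycin replicates spread widely, and the last level was 309 ± 107 CPM (SD, n = 3).

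PRR18, on chromosome 6 (166305300 to 166308448, minus strand), had 5 and 1 counts on DMSO at 2 h, 1, 3 and 6 at 10, 24 and 48 h, and 2, 2 and 0 at the last time. Its toyocamycin counts were 29 and 10 at 2 h, 232 and 38 at 10 h, 828 at 24 h, then 2307 at 48 h and 1225, 2770 and 3281 at the last time. PRR18 was the weakest of the 5 early genes in its error, at 0.871 ± 0.466 CPM (SD, n = 2) against 0.131 ± 0.112 CPM (n = 2) at 2 h, with no overlap. The last level of 221 ± 88.0 CPM (n = 3) had the same low library, replicate 1, as that of RNF225.

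BAAT, on chromosome 9 (101354182 to 101385400, minus strand), had 0 and 3 counts on DMSO at 2 h, 0, 0 and 2 at 10, 24 and 48 h, and 2, 0 and 3 at the last time. On toyocamycin it had 23 and 17 counts at 2 h, 135 and 118 at 10 h, 661 at 24 h, then 1093 at 48 h and 825, 829 and 878 at the last time. The replicates lay close together, at 0.937 ± 0.0225 CPM (SD, n = 2) at 2 h and 78.1 ± 2.64 CPM (n = 3) at the last time.

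CAND2, on chromosome 3 (12796472 to 12834804, plus strand), was counted in all 8 DMSO libraries, with 3 and 5 at 2 h, 2, 3 and 2 at 10, 24 and 48 h, and 3, 2 and 4 at the last time. Toyocamycin libraries held 35 and 11 counts at 2 h, 59 and 55 at 10 h, 177 at 24 h, then 432 at 48 h and 665, 696 and 767 at the last time. This gave 65.5 ± 1.08 CPM (SD, n = 3) at the last time against 0.138 ± 0.0405 CPM (n = 3), and no library of one arm reached the other at any time.

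ZDBF2, on chromosome 2 (206274663 to 206314427, plus strand), did not separate at 2 h, where DMSO gave 1 and 1 counts and toyocamycin 1 and 0. From 10 h it did, with 113 and 93 counts at 10 h, 274 at 24 h, then 813 at 48 h and 674, 624 and 640 at the last time, while DMSO stayed at 0, 0 and 1 count at 10, 24 and 48 h and at 0, 1 and 0 at the last time. Against the floor of 3 counts over the DMSO group, the 10 h level was at least 70.6-fold higher and the 24 h level at least 161-fold higher.

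SYNE1, on chromosome 6 (152121687 to 152637801, minus strand), had 3 and 1 counts on DMSO at 2 h and 0 or 1 in every later DMSO library. On toyocamycin it had 2 and 1 counts at 2 h, 11 at 24 h, then 133 at 48 h and 1161, 1085 and 1219 at the last time. At 10 h the replicates disagreed, with 1 count in replicate 1 and 104 in replicate 2, the library that stood apart. Its last level was 107 ± 6.84 CPM (SD, n = 3).

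ZG16B, on chromosome 16 (2830253 to 2839585, plus strand), was lower on toyocamycin in both libraries of 2 h, with 1 and 0 counts against 9 and 5 on DMSO. It then had 9 and 18 counts at 10 h, 36 at 24 h, then 267 at 48 h and 1311, 1499 and 1472 at the last time, against 1, 1 and 8 at 10, 24 and 48 h and 0, 3 and 3 at the last time on DMSO. The last level was 132 ± 6.09 CPM (SD, n = 3) against 0.0894 ± 0.0776 CPM (n = 3). With 1 count against 14 at 2 h, the ratio was 0.0725, with an exact 95% counting interval of 0.00171 to 0.476.

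Per kilobase of annotated exon, the order at the last time was WDR38 (531 CPM per kb), RNF225 (217), PRR18 (70.1), ZG16B (51.1), BAAT (16.5), CAND2 (12.6), ZDBF2 (5.49) and SYNE1 (2.25), all in CPM per kb with n = 3. PRR18 and ZG16B overlapped between libraries, and the other neighbours in this order did not. In the order of fitted log2 fold change at the last time, WDR38 was 1st, SYNE1 5th, PRR18 15th, ZDBF2 20th, RNF225 26th, ZG16B 61st, BAAT 99th and CAND2 262nd. MYPN (log2 fold change 12.63) and PTGER3 (12.41), which stand between WDR38 (13.43) and SYNE1 (12.26), are not members, and each had 0 counts in the 3 DMSO libraries. At 2 h, RNF225 was 10th (4.86), WDR38 38th (4.05), BAAT 62nd (3.63), PRR18 195th (2.65) and CAND2 205th (2.47), behind genes such as GPR18 (5.77) and CD200R1 (5.71), which rested on 16 and 15 toyocamycin counts. When 1 library of 2 h was left out, these values ran from 4.08 to 7.78 for RNF225, 3.78 to 4.47 for WDR38, 2.55 to 7.10 for BAAT, 1.92 to 3.96 for PRR18 and 1.65 to 3.01 for CAND2. The value was 7.78 for RNF225 and 3.96 for PRR18 without DMSO replicate 1, and 7.10 for BAAT without DMSO replicate 2, and for CAND2 1.65 without toyocamycin replicate 1. A fitted fold change against libraries at 0 depends on the prior count of the fit and is not a bound.

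The times between the chosen contrasts were tested. All 8 genes entered both fits, which they did through their toyocamycin libraries, so a count of calls among them is a description. At 10, 24 and 48 h, all 8 were called higher on toyocamycin with edgeR at an adjusted p under 0.1, beside 20.4%, 30.7% and 39.2% of all genes tested. At 10 h, the log2 fold changes ran from 4.63 ± 0.996 (SE) for ZG16B (edgeR adjusted p = 0.00193) to 11.78 ± 0.85 for WDR38 (edgeR adjusted p = 4.44e-07), with 1 DMSO and 2 toyocamycin libraries. Without toyocamycin replicate 2, a batch 1 toyocamycin library stands against a batch 2 DMSO library, so drug and batch cannot be told apart. The log2 fold change was then 0.68 for SYNE1, and the others ran from 3.73 for ZG16B to 12.23 for WDR38. Without replicate 1, which leaves replicate 2 of each arm from batch 2, the values of the 8 ran from 5.35 for ZG16B to 11.20 for WDR38.

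At 24 h, with 1 library per arm and the spread taken from the other times, the log2 fold changes lay between 5.77 ± 0.77 (SE) for ZG16B and 12.71 ± 0.79 for BAAT. At 48 h they lay between 5.82 ± 0.44 for ZG16B and 15.94 ± 0.53 for WDR38. SYNE1 at 24 h rested on 11 counts against 0 and lost its call when all 17 libraries shared a fit, with a log2 fold change of 6.77 in place of 6.81 (edgeR adjusted p = 0.186). The call of ZG16B at 10 h was lost when only the libraries of 2 and 10 h were fitted, with 4.77 in place of 4.63 (edgeR adjusted p = 0.310).

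From 10 h to 24 h on toyocamycin, 6 of the 8 genes rose at an adjusted p under 0.1, beside 21.2% of all genes that rose and 18.8% that fell. The steps on the log2 scale were 3.09 ± 0.30 (SE) for WDR38, 2.86 ± 0.64 for RNF225, 2.41 ± 0.55 for PRR18, 2.01 ± 0.31 for BAAT, 1.26 ± 0.32 for CAND2 and 1.05 ± 0.27 for ZDBF2. SYNE1, at -2.80 ± 1.26 (edgeR adjusted p = 0.104), and ZG16B, at 1.03 ± 0.51 (edgeR adjusted p = 0.135), did not pass. Within batch 1, which leaves out replicate 2 of 10 h, all 8 rose, with steps of 3.29 for SYNE1, 1.94 for ZG16B, 2.06 for RNF225 and 1.79 for PRR18 on the log2 scale. Without replicate 1 instead, the steps were 5.44 for RNF225 and 3.76 for PRR18, and ZG16B was at 0.31 (edgeR adjusted p = 0.581). SYNE1 was then called lower at 24 h (-3.91, edgeR adjusted p = 9.59e-07), so its direction over this step was set by a single library.

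From 24 h to 48 h, with 1 library at each time, all 8 rose, beside 21.4% of all genes that rose and 19.6% that fell. SYNE1, by 3.84 ± 0.39 (SE) on the log2 scale, and ZG16B, by 3.14 ± 0.36, had the largest values, and the other 6 rose by 0.98 ± 0.32 for BAAT to 1.82 ± 0.28 for ZDBF2. Under scaling on the 13 mitochondrially encoded genes, 2 of the 8 passed. That scaling moved the median of all genes at 24 h to -2.16 from 0.00 and at 48 h to -1.64 from 0.16 (log2 fold change against DMSO). Differences between members in the size of a step were not tested.

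**Figure D2:**
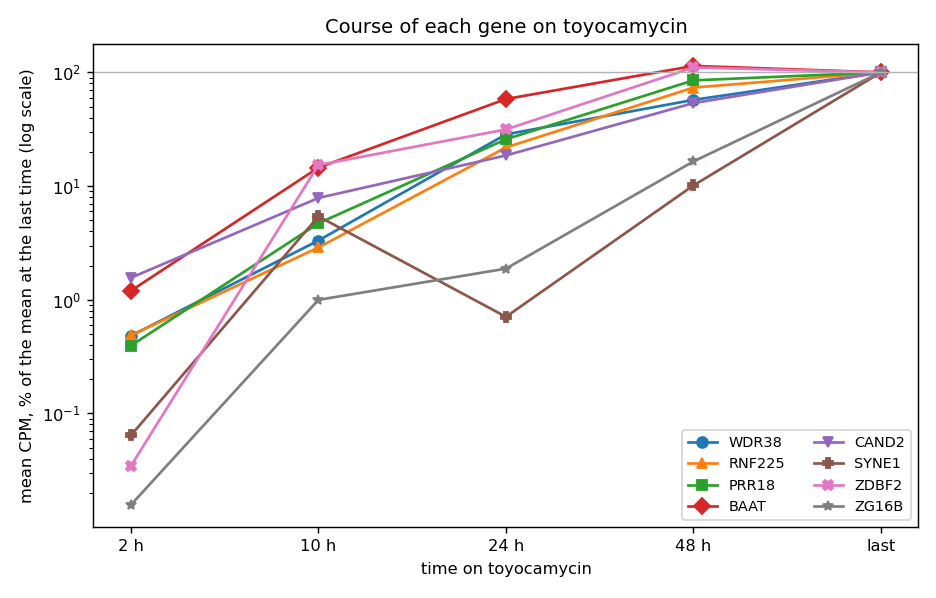
Mean level of each gene on toyocamycin at each time, as a percentage of its own mean at the last time, on a log axis. BAAT and ZDBF2 are at 114% and 110% by 48 h, whereas SYNE1 and ZG16B are at 10.1% and 16.5%.

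As a share of the level at the last time, BAAT had reached 58.2% at 24 h and 114% at 48 h, and ZDBF2 31.5% and 110%. WDR38 had reached 28.5% and 57.3%, RNF225 21.9% and 73.4%, PRR18 25.8% and 85.0%, and CAND2 18.6% and 53.7%. SYNE1 had reached 0.708% and 10.1%, and ZG16B 1.88% and 16.5%. Thus 6 genes had most of their last level in the 1 library of 48 h, and SYNE1 and ZG16B gained theirs after it. The last libraries themselves ran from 54.6% to 129% of their mean for PRR18 and from 60.7% to 126% for RNF225. Over the 17 libraries, Pearson's r of log2 CPM between members ran from 0.847 (RNF225 and SYNE1) to 0.987 (WDR38 and CAND2), and it was 0.960 for SYNE1 with ZG16B. The libraries share the treatment and the times, so these values describe the courses only.

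The genes whose course over the 17 libraries was most like that of a member were mostly other genes near 0 on DMSO. LRIT3 was most like WDR38 (r = 0.995), COLEC11 most like RNF225 (0.990) and PRR18 (0.988), CD200R1 most like BAAT (0.994), TBR1 most like CAND2 (0.995), TERB1 most like SYNE1 (0.993), GDF6 most like ZDBF2 (0.996) and RUNX1 most like ZG16B (0.986), all as Pearson's r over 17 libraries. PRR18 was 3rd for RNF225 (0.986), the only member among the 3 genes listed for another.

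The expressed genes around each member were then set beside it. A gene with a mean of at least 1 CPM over the 17 libraries was taken as expressed, and the nearest on each side and each strand within 500 kb was kept, along with every counted gene that overlaps a member. This gave 25 expressed neighbours, 13 on the strand of the member and 12 on the other, plus ESR1, which overlaps SYNE1 and was below that level. The mean takes in the toyocamycin libraries, so a neighbour could enter through its level there. PDE10A, 317182 bases downstream of PRR18, had DMSO levels of 0.144 to 0.389 CPM over the times. On toyocamycin it was at 2.98 CPM at the last time. Distances are between gene bodies of GENCODE v44 on GRCh38, the build of the counts. The strand setting of the counting is not given in the sources used here, so reads over bases that 2 genes share cannot be told apart.

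Of the genes that were higher at 2 h, the closest expressed gene is given for WDR38, CAND2, BAAT and PRR18. WDR38 runs toward RPL35, a ribosomal protein gene on the other strand, and the exons of the genes share 11 bases at their ends. CAND2 runs toward RPL32, another ribosomal protein gene, and their exons share 320 bases. BAAT starts 2232 bases past the end of MRPL50, a mitochondrial ribosomal protein gene, on the same strand, and PRR18 starts 11279 bases past the end of SFT2D1, a vesicle transport gene, also on the same strand.

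ZDBF2, ZG16B and SYNE1 were not higher at 2 h. The nearest to ZDBF2 were CMKLR2, 56615 bases upstream on the other strand, and EEF1B2, a translation elongation factor gene, 111734 bases upstream on its own strand. ZG16B had PRSS22, a serine protease gene, 13144 bases downstream on the other strand. SYNE1 shares 7933 bases with ESR1, the oestrogen receptor gene, and 0 exonic bases, and its nearest expressed neighbour was FBXO5, 332717 bases upstream. The groups were set by the counts at 2 h, so these distances are a description.

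**Figure D3:**
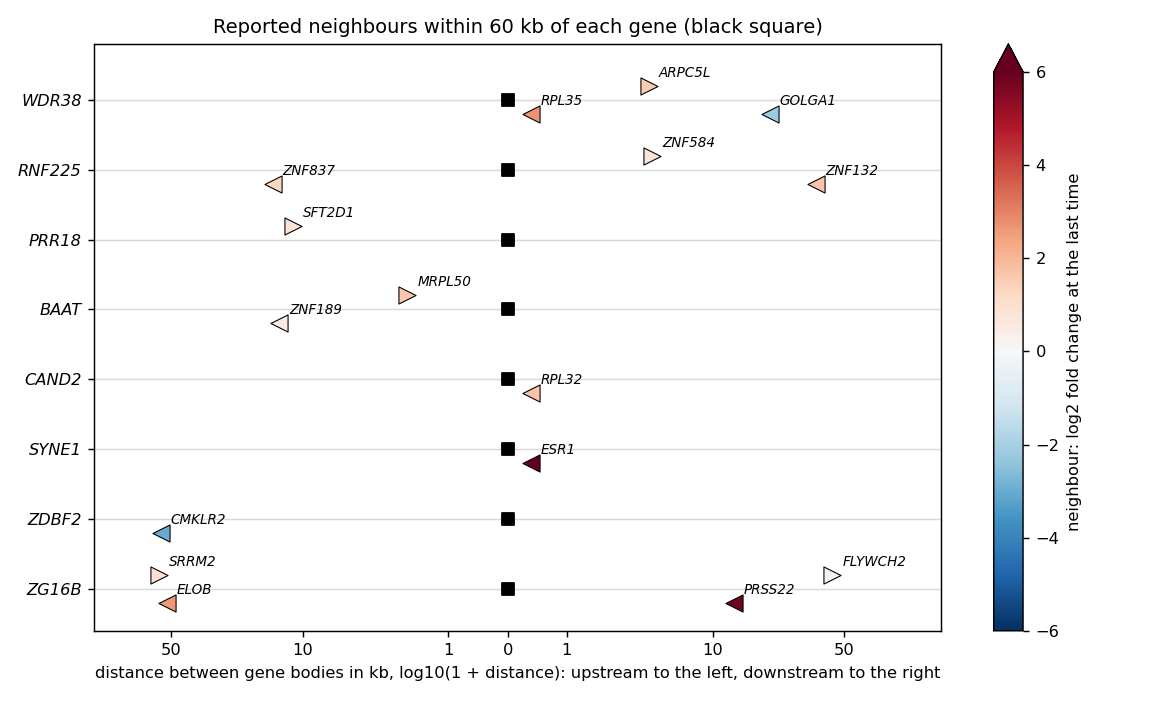
Counted genes described within 60 kb of each member, placed by the distance between gene bodies on a log scale and oriented by the direction of the member, with right-pointing triangles for the same strand and left-pointing for the other. Genes that overlap a member are drawn just beside its square, and the colour is the log2 fold change of the neighbour at the last time, with ESR1 (8.51) above the end of the scale.

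At 2 h, when WDR38, RNF225, BAAT, CAND2 and PRR18 were already higher, 0 of the 25 neighbours were called higher with edgeR, beside 0.518% of all genes tested, and 0 had an unadjusted p under 0.05 in that direction. DESeq2 also called 0, with 1 at an unadjusted p under 0.05. ZNF189, a zinc finger gene 13450 bases upstream of BAAT on the other strand, was called lower, at 3.03 ± 0.239 CPM (SD, n = 2) against 9.80 ± 1.91 (log2 fold change -1.69 ± 0.26 (SE), edgeR adjusted p = 7.18e-04), beside 8.42% of all genes. The close neighbours of WDR38, CAND2, PRR18 and BAAT had log2 fold changes of 0.31 ± 0.22 (SE) for RPL35, 0.18 ± 0.16 for RPL32, 0.25 ± 0.15 for SFT2D1 and -0.55 ± 0.19 for MRPL50, and none passed the test. MRPL50 was called lower with the replicate number as a block, a number that marks the batch at 2 h.

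Later, the neighbours moved in both directions. At 10 h, 8 of 25 rose and 8 fell (all genes: 20.4% and 24.4%). At 24 h the counts were 13 and 5 (30.7% and 32.0%), at 48 h 15 and 3 (39.2% and 35.5%), and at the last time 20 and 3 (47.0% and 41.9%). By strand, 11 of 13 on the strand of the member rose at the last time and 0 fell, and on the other strand 9 of 12 rose and 3 fell. PDE10A is among those that rose, and the shares of all genes are not limited to genes with a mean of 1 CPM. The median log2 fold change of the 25 was 1.31 at the last time against 0.18 over all genes tested. With scaling on mitochondrially encoded genes, which moved the median of all genes to -0.89, 6 of the 25 rose and 5 fell, and the sign turned for 8.

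RPL35 and RPL32 were called higher at 10 h and at each later time. RPL35 was at 5185 ± 486 CPM (SD, n = 3) at the last time against 824.5 ± 97.7 on DMSO (log2 fold change 2.68 ± 0.19 (SE), edgeR adjusted p = 3.05e-09). RPL32 was at 1778 ± 126 CPM against 564 ± 49.6, with a log2 fold change of 1.69 ± 0.14. Both stayed higher at the last time under each scaling run, and with scaling on mitochondrially encoded genes RPL35 was at -0.12 at 10 h and RPL32 at -0.03 at 24 h.

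Of the other close neighbours, MRPL50 was at 62.4 ± 3.48 CPM (SD, n = 3) at the last time against 20.9 ± 3.39 (log2 fold change 1.61 ± 0.16 (SE), edgeR adjusted p = 1.16e-07). SFT2D1 was at 90.5 ± 3.87 CPM against 51.9 ± 4.19 (0.84 ± 0.13, edgeR adjusted p = 1.48e-05), and it turned to -0.23 with scaling on mitochondrially encoded genes. SFT2D1 had no call at 10, 24 or 48 h, times at which PRR18 was called higher. GOLGA1, a Golgi protein gene 20384 bases from WDR38, fell by 2.19 ± 0.24 (SE) and IQSEC1, 62238 bases from CAND2, fell by 3.13 ± 0.16 on the log2 scale at the last time, while WDR38 and CAND2 were at their highest. CMKLR2 fell by 3.01 ± 0.55 from 2.07 CPM to 0.237 CPM.

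Around the late genes, PRSS22, the neighbour of ZG16B, also rose, and both were already higher at 10 h. The log2 fold changes were then 3.65 ± 0.76 (SE) for PRSS22 and 4.63 ± 0.996 for ZG16B. PRSS22 was at 30.8 ± 29.7 CPM (SD, n = 2) on toyocamycin at 10 h against 2.49 in the 1 DMSO library. At 24 h, with 1 library per arm, PRSS22 was at 117 CPM on toyocamycin against 3.27 on DMSO (log2 fold change 5.17). ZG16B was then at 2.48 CPM against 0.0389 (5.77). Which of these genes rose first was not tested. PRSS22 was at 5.95 ± 1.90 CPM (SD, n = 2) on toyocamycin at 2 h against 4.49 ± 2.21 on DMSO, and at 591 ± 131 CPM (n = 3) at the last time against 10.4 ± 0.908 (log2 fold change 5.86 ± 0.27 (SE), edgeR adjusted p = 1.62e-11). FLYWCH2, 43627 bases downstream of ZG16B on the same strand, fell at 24 h (-3.20 ± 0.54, edgeR adjusted p = 1.36e-04) and had no call at the last time. ESR1 had 0 counts in the 3 DMSO libraries of the last time and was at 2.43 ± 1.10 CPM (n = 3) on toyocamycin, next to 107 CPM for SYNE1. FBXO5, a brake on the anaphase-promoting complex, was at 158 ± 11.8 CPM against 18.7 ± 2.89.

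The counts of a member were also read as a percentage of those of its close neighbour in the same library, which needs no scaling between libraries. WDR38 had 0% to 0.0432% of the counts of RPL35 in the DMSO libraries, 0.221% and 0.377% in the toyocamycin libraries of 2 h, 5.17% at 24 h and 11.8% to 15.7% at the last time. CAND2 had at most 0.0427% of those of RPL32 on DMSO, 0.0838% and 0.249% at 2 h and 3.48% to 4.07% at the last time. Both thus gained on a neighbour that itself rose.

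BAAT and PRR18 overtook theirs. BAAT had 0% to 0.634% of the counts of MRPL50 on DMSO, 5.52% and 7.35% at 2 h, 102% at 48 h and 123% to 129% at the last time. PRR18 had 0% to 0.593% of those of SFT2D1 on DMSO, 1.11% and 2.75% at 2 h, 157% at 24 h, 311% at 48 h and 127% to 325% at the last time. These are ratios of counts, not of levels per length.

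**Figure D4:**
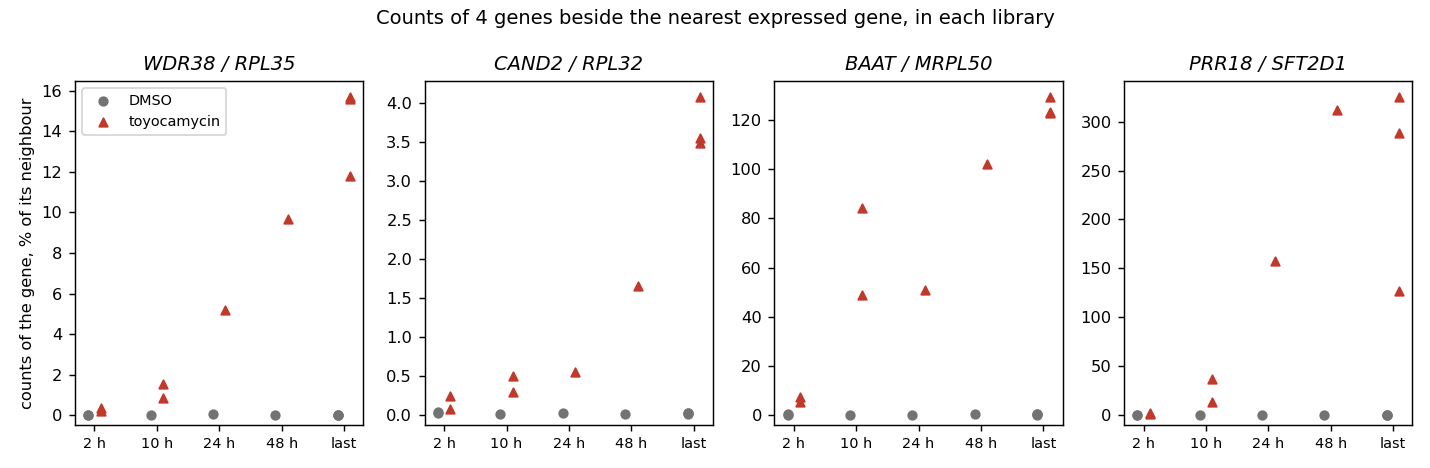
Counts of WDR38, CAND2, BAAT and PRR18 as a percentage of the counts of the nearest expressed gene, in each library against time, with DMSO as grey circles and toyocamycin as red triangles and a separate linear axis for each pair. DMSO libraries sit near 0 throughout, and BAAT and PRR18 pass 100%.

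The positions of the 8 genes were set beside those of all genes that were as low on DMSO. No DMSO library was above 10 counts for 6870 counted genes, of which 6828 had a position. Of these, 1344 (19.7%) had an expressed gene that ended within 10 kb upstream on the same strand or that ran toward them on the other strand with its end within 10 kb (tail to tail). BAAT fell in the first class and WDR38 and CAND2 in the second, PRR18 missed it by its distance of 11279 bases, and SYNE1, ZDBF2 and ZG16B were in neither.

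At 2 h, 31 of the 6828 genes had 10 counts or more in both toyocamycin libraries, and 17 of the 31 were in either class. WDR38, RNF225, BAAT, CAND2 and PRR18 were among the 31, and without them the count was 13 of 26. By class, 1.26% of the genes in either class and 0.255% of the others reached 10 counts at 2 h. At the last time, 34.6% and 13.3% did so in all 3 toyocamycin libraries. Over all counted genes, whatever their level on DMSO, the shares also differed between the classes. They were 73.7% and 53.9% at 2 h, and 79.6% and 55.9% at the last time. These shares are a description of these libraries, the classes were chosen with results on the members known, and whether the reads start at the gene or come from RNA of the neighbour was not tested.

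**Figure D5:**
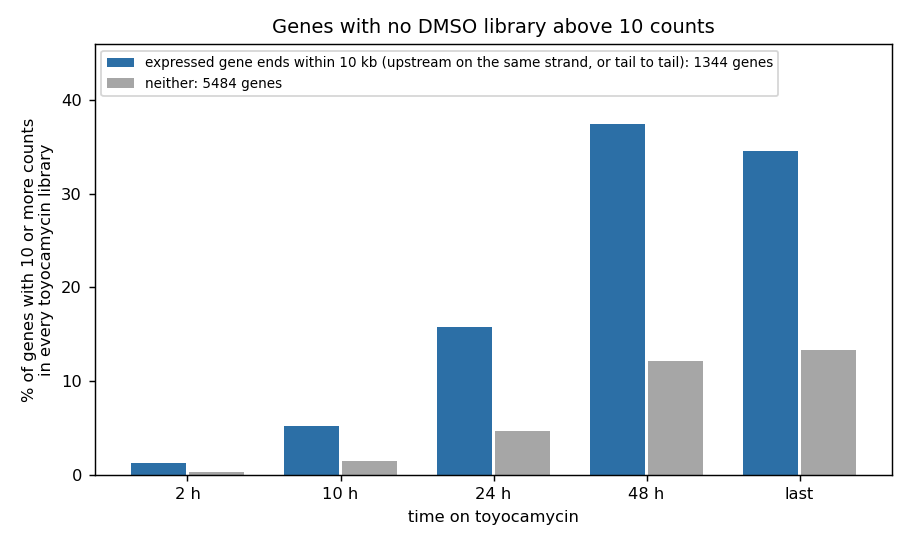
Share of the genes with no DMSO library above 10 counts that reached 10 counts in every toyocamycin library of a time, for 1344 genes with an expressed gene ending within 10 kb and for 5484 without. The share was higher in the first class at each time, with 34.6% against 13.3% at the last. Over all counted genes, not drawn, it was also higher in that class, with 79.6% against 55.9% at the last.

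Partners and paralogues of the members moved in both directions. For SYNE1, the list of the LINC complex and nuclear lamina held 18 other tested genes, of which 3 rose and 13 fell at the last time (median -1.34, all genes 0.18), beside 47.0% and 41.9% of all genes tested. SUN1 and SUN2, the inner membrane partners of nesprins, fell, with log2 fold changes of -2.25 ± 0.12 (SE) and -4.71 ± 0.22. SYNE2, the paralogue that codes for nesprin-2, fell by 4.37 ± 0.22 on the log2 scale, from 125 ± 5.32 CPM (SD, n = 3) on DMSO to 5.87 ± 1.73 CPM (edgeR adjusted p = 6.26e-11). SYNE4 fell by 3.04 ± 0.28, whereas SYNE3 rose by 2.25 ± 0.15, and these directions held under each scaling run.

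CAND1 was at 111 ± 11.2 CPM (SD, n = 3) on DMSO at the last time, with a log2 fold change of -2.29 ± 0.24 (SE) at 10 h and 0.64 ± 0.13 at the last time, when CAND2 was at 8.85, and the last value turned to -0.42 with scaling on mitochondrially encoded genes. Beside the same shares of all genes, 47.0% and 41.9%, 9 of 33 other genes of the cullin and neddylation list rose and 17 fell (median -0.31, which turned to 0.01 with DESeq2 size factors), and CUL1 fell by 0.90 ± 0.12. For BAAT, 6 of 14 other tested bile acid genes rose and 4 fell, shares below those of all genes (median 0.15, turning to -0.94 with scaling on mitochondrially encoded genes), and SLC27A5, the ligase that makes the substrate of BAAT, was at 23.8 ± 3.10 CPM against 23.2 ± 3.07 (SD, n = 3, log2 fold change 0.07 ± 0.16 (SE), edgeR adjusted p = 0.675).

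The counts of the remaining lists, also at the last time, are to be read against the 47.0% of all genes tested that rose and the 41.9% that fell. Of 24 other imprinted genes, 14 rose and 9 fell (median 1.06, turning to -0.02 with scaling on mitochondrially encoded genes). Of 9 other secreted lectins, 4 rose and 3 fell (median 0.21, turning to -0.82 with that scaling), and ZG16, the paralogue of ZG16B, had at most 1 count in any library of the last time and was not tested. Of 54 other WDR genes, 25 rose and 24 fell (median 0.10, turning to -0.94 with that scaling). WDR5, a subunit of histone methyltransferase complexes, fell by 0.91 ± 0.12 (SE) and WDR31 by 1.26 ± 0.36. Of 70 other RNF genes, 36 rose and 28 fell (median 0.28, turning to -0.79 with that scaling), and of 15 other PRR genes, 4 rose and 8 fell (median -0.80).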

How the data were processed

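RNA-seq libraries of YB5 cells were analysed in 10 groups of treatment and time taken from the labels. The authors aligned reads to GRCh38 with STAR 2.7.5a (per the submitters' processing notes) and deposited raw counts per gene, whole numbers with no normalization, for 19141 genes. Another deposited table holds the authors' own log2 fold changes and p-values and was not used, and 1 column of the count table that matches no labelled sample was not used. Positions came from GENCODE v44, matched for 19080 genes, and start sequences from RefSeq.

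Libraries were scaled with TMM, genes were kept with filterByExpr, and edgeR 4.0.16 (R 4.3.3, limma 3.58.1) fitted groups with its quasi-likelihood test in the form of earlier versions. The study's methods name edgeR's glmTreat with no minimum fold change. The kind of fit was chosen here. Calls used a Benjamini-Hochberg adjusted p under 0.1 over all genes tested. Without the 10 h libraries, 14 libraries and 14491 genes gave 2, 24, 48 h, the last time and the step from 24 to 48 h. All 17 libraries and 16521 genes gave 10 h and the step from 10 to 24 h. CPM values use the TMM factors of all 17 libraries, so a ratio of CPM can differ from a fold change of the fit of 14 libraries. For correlations, a prior count of 2 was added before taking log2 CPM. The form of the test was checked on simulated counts in which only well-covered genes changed. That check does not cover genes near 0 on DMSO. DESeq2 1.42.0 and Python 3.11.15 (pandas 2.3.3, numpy 2.4.6, scipy 1.17.1, matplotlib 3.10.9) were also used.

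Members, gene lists, position classes and alternatives were chosen with earlier results of these data known. Genes named are the members, their neighbours by position, the most alike genes, the next genes in the order of fold change, and partners and paralogues from the lists. A floor of 3 counts over a group at 0 gave lower bounds of folds, and 95% intervals are exact. No molecular identifiers were used, so floors and intervals stand for counting error alone. At 2 h the replicate number marks the batch in the labels and pairs the samples, with a correlation of 0.307 between same-numbered deviations.

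Alternatives were other scalings, tests, filters, sets of libraries and thresholds, a batch term, a replicate block, another minimum for expressed neighbours, and leaving out each library. Some items and the results that need them are not reported here.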

Additional observations from a re-analysis of the deposited data

Results flagged for a closer look

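Some genes had every toyocamycin library below every DMSO library in CPM at 2 h and above at the last time, which marked them for a closer look, and the difference between the times was not tested for any of them. ZG16B had a log2 fold change of -3.45 at 2 h, on 1 count against 14, and 10.41 at the last time. ZDBF2 had -0.81 at 2 h, where 1 count against 2 in all does not separate the arms beyond counting error (the highest toyocamycin library was at 0.0414 CPM and the lowest DMSO library at 0.0421 CPM, 1 count each), and 11.43 at the last time. MRPL50, the neighbour of BAAT, had -0.55 at 2 h and 1.61 at the last time. ZNF584, 4424 bases downstream of RNF225, had -0.43 at 2 h and 0.76 at the last time, and the last value was -0.35 with scaling on mitochondrially encoded genes. ZG16B and ZDBF2 are members, so their last values were chosen to be high.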

How the results depend on the processing

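The calls of the 8 members at 24 and 48 h were kept in number to within 1.5 times under every alternative run, and no library could be left out there, since each arm has 1. At 10 h, 8 members were called under the settings that kept both toyocamycin libraries, except for 7 with the libraries of 2 and 10 h only. For 24 h against 10 h, the 6 changed members became 5 with library size alone and 5 with scaling on mitochondrially encoded genes. They became 7 with a batch term, and 8 with DESeq2 or with no filter. Over this step SYNE1 was at -3.91 without toyocamycin replicate 1 of 10 h and at 3.29 without replicate 2, on the log2 scale. For 48 h against 24 h, scaling on mitochondrially encoded genes left 2 of 8. Neighbours called higher at 2 h numbered 0 to 1 when a library was left out, the 1 being PRSS22 without DMSO replicate 1. Those called lower at 2 h, 1 as reported, were 1 to 3 when a library was left out, 2 with library size alone, 2 with the replicate block and 0 with scaling on mitochondrially encoded genes. Neighbours called higher at the last time, 20 as reported, were 18 to 20 when a library was left out and 6 with scaling on mitochondrially encoded genes, and those called lower, 3 as reported, were 3 when a library was left out, 4 with library size alone and 5 with that scaling. SYNE1 at 2 h, which had 4 DMSO and 3 toyocamycin counts, had a log2 fold change of -0.36, which ran from -0.78 to 0.40 when a library was left out and was 0.40 without DMSO replicate 1. The replicate block changed no other count of calls by over 1.5 times. At the last time the labels do not say that a number marks a shared culture, and it was not taken as a pairing, with correlations of -0.105, 0.0427 and -0.0876 between same-numbered libraries. The block gives no value for steps between times. The cause of these shifts was not tested. Depth limits members near 0, where 1 count is 0.0414 CPM or more for toyocamycin at 2 h.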
